A study of Homo sapiens with 12 samples.

Results

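The plasminogen activator system was followed in Ewing sarcoma cells through 8 genes, taken by symbol from the count table. They were the activators PLAU and PLAT, the urokinase receptor PLAUR, the inhibitors SERPINE2 and SERPINB2, and the plasminogen receptors ANXA2, S100A10 and PLGRKT. All 8 symbols were found among the 58721 genes of the table, and all 8 were among the 21013 genes that passed the filter on low counts. SERPINB2 had at most 2 counts in any vehicle library and passed that filter through the doxycycline libraries.

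Plasminogen is an inactive precursor made mainly by the liver. Urokinase, the product of PLAU, and tissue-type plasminogen activator, the product of PLAT, cut it to plasmin, a serine protease that dissolves fibrin and degrades other matrix proteins. Urokinase acts mostly at the cell surface, bound to its receptor PLAUR, where annexin A2 with its partner S100A10 and the membrane protein PLGRKT hold plasminogen, while serpins trap the activators in inactive complexes. In tumours the system is known for matrix breakdown and invasion.

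EW8 and TC71 are established Ewing sarcoma cell lines. Both had been transduced with a Tet-On transactivator driven by the EF1 alpha promoter and with c-Jun and c-Fos, whose dimer is the transcription factor AP-1, behind 1 doxycycline-responsive promoter. Cells received vehicle (DMSO) or doxycycline at 2000 ng/ml for 72 h, which gave the groups EW8 vehicle, EW8 doxycycline, TC71 vehicle and TC71 doxycycline with 3 RNA sequencing libraries each. The vehicle cells carried both constructs as well. Libraries of doxycycline-treated cells without the transgenes were not analysed here, so doxycycline itself and the induced factors cannot be told apart. The labels do not say that the libraries of a group came from separate cultures, and p-values therefore measure the spread between libraries, which may be technical.

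Total counts ranged from 42860665 to 60853649 per library. The mean level of JUN was 21.6 ± 2.61 CPM (counts scaled to the size of the library, SD, n = 3) in EW8 vehicle and 473.7 ± 44.8 in EW8 doxycycline, and 20.7 ± 4.01 and 755.5 ± 54.6 in TC71. FOS went from 36.8 ± 0.814 to 1078 ± 72 CPM in EW8 and from 11.7 ± 0.426 to 1580 ± 120 CPM in TC71. These counts pool transgene and endogenous transcripts. All 8 markers listed for Ewing sarcoma cells were above the floor of 6 counts in every group. Their summed level was lower with doxycycline, at 2720 to 2780 CPM against 2880 to 2920 in EW8 and at 2410 to 2500 against 2570 to 2810 in TC71. CCND1 alone went from a mean of 1420 CPM to 975.2 in EW8 and from 1425 to 1114 in TC71. LIPI was called lower in EW8 (-1.4 on the log2 scale, adjusted p = 1.08e-08, edgeR). The markers did not move together. At an adjusted p under 0.05 in edgeR but with smaller changes, CD99 rose in EW8 (0.62) and TC71 (0.44), and NR0B1 in TC71 (0.38). NKX2-2 fell in EW8, LIPI in TC71, and STEAP1, PRKCB and CCND1 in both lines. FLI1 passed in neither. The part of these changes in the results was not tested. TC71 vehicle replicate 1 stood apart from the other libraries of its group, with a chi-square per gene of 62.5 and 65 against them, where all other pairs within a group had 5.38 to 11.1. The members' tests that use TC71 vehicle are therefore also given without it.

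Of the 8 genes, 7 rose with doxycycline in EW8 and the same 7 rose in TC71, and PLGRKT did not pass the test in either line. SERPINB2, 1 of these 7, passed the filter on low counts only through doxycycline libraries, so the filter favoured its call. A gene was called when its log2 fold change exceeded 1 in size at an adjusted p under 0.05 in edgeR's quasi-likelihood test. By this rule 11.4% of all tested genes were called higher in EW8, 12.3% in TC71 and 7.44% in both, and no member had an estimate under 0, while 3.38% and 3.67% of all genes were called lower. The median log2 fold change of the 8 genes was 4.07 in EW8 and 4.38 in TC71, while the medians over all tested genes were -0.03 and 0. Both member medians stayed the same with SERPINB2 set to its lower bound. Every doxycycline library lay above every vehicle library for 7 members in EW8 and for all 8 in TC71, as did 26.9% and 27.6% of all genes. In the fit without TC71 vehicle replicate 1, 7 members were again called in each line.

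The size of the response differed between the lines for 6 of the 8 genes at an adjusted p under 0.05, as it did for 19.3% of all genes. With the limit on size, 1 member (PLAT) responded more in TC71, against 4.18% of all genes, and 3 (PLAU, SERPINE2 and S100A10) responded less, against 2.87%. With vehicle, 2 members (SERPINE2 and S100A10) were called higher in TC71 than in EW8 and 1 (PLAT) lower, where 11.6% and 18.9% of all genes were called; PLAUR, higher by 1.00, was called in 11 of 20 alternatives. With doxycycline, 2 (PLAUR and S100A10) were called higher in TC71 and 2 (PLAU and SERPINB2) lower, against 12.6% and 18.4% of all genes.

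**Figure D1:**
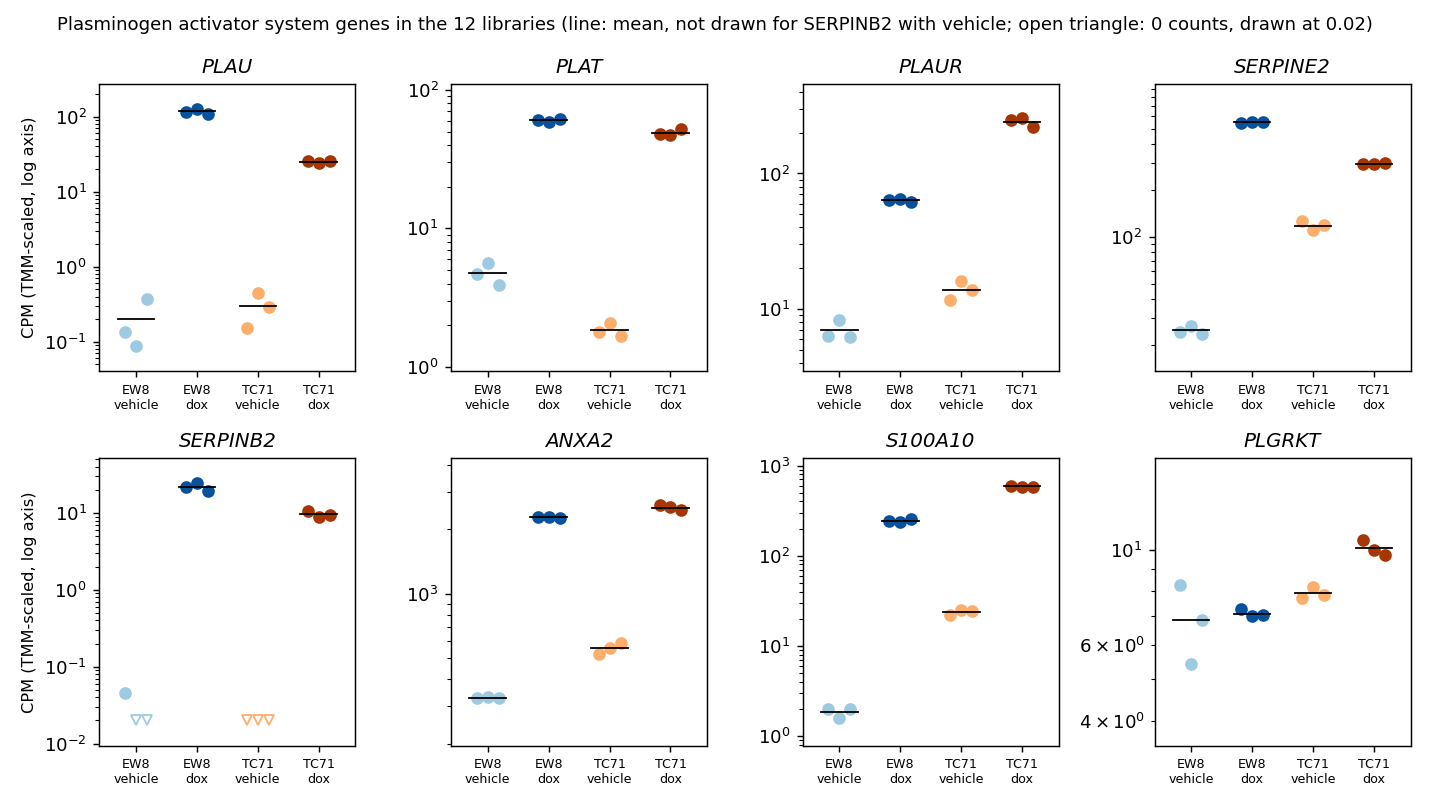
Level of each of the 8 genes in the 12 libraries, in CPM after TMM scaling on a log axis; each point is 1 library and each line a group mean, and libraries with 0 counts are open triangles. Except for PLGRKT, every doxycycline library lies above every vehicle library of its line; PLGRKT overlaps between the EW8 groups.

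**Figure D2:**
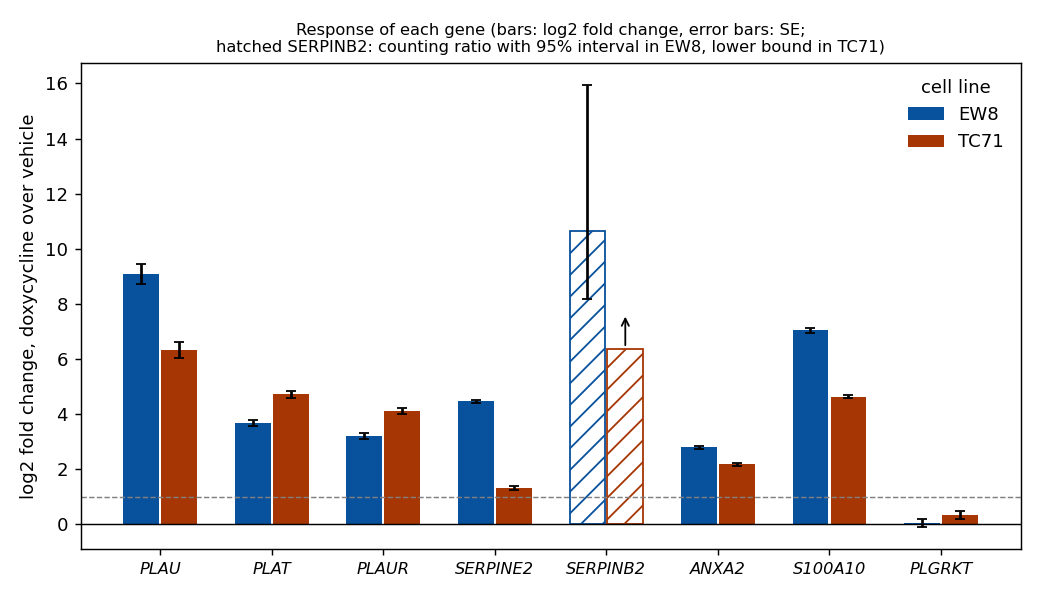
Log2 fold change of each gene, doxycycline over vehicle, in EW8 and TC71, with SE; the dashed line marks a log2 fold change of 1. The EW8 bar of SERPINB2 is a ratio of counts with its 95% interval, and the TC71 bar is a lower bound (arrow), since that vehicle group had 0 counts. PLAU, S100A10, SERPINE2 and ANXA2 had the larger response in EW8, at 9.09, 7.04, 4.47 and 2.79 against 6.34, 4.63, 1.32 and 2.18. PLAT and PLAUR had the larger response in TC71, at 4.72 and 4.12 against 3.68 and 3.19.

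AP-1 dimers recognise a 7-base element with the letters TGANTCA. RefSeq promoters (250 bases before to 50 bases after a start, GRCh38.p14) were searched for 7 of the 8 genes, at 9 start sites. The chromosome that carries PLAT was left out of the search and of the background shares. Whether PLAT has the element was therefore not tested. Of the 7 genes searched, 3 held the element in a promoter: PLAUR, SERPINB2 and ANXA2. The reverse complement of the element has the same pattern, so both strands were searched at once. The element occurred in 7.71% of the 35116 promoters searched. Its narrower form TGAGTCA or TGACTCA was in the promoters of PLAUR and ANXA2 but not in that of SERPINB2, against 4.95% of promoters. Within 3000 bases upstream of a start, read from hg38, the element occurred in 57% of all windows. It occurred at least once for each of the 7 genes, PLGRKT included. Genes are counted here over all their starts, while the shares count each window, and the window of 1 SERPINE2 start held 0. The narrower form was found upstream of PLAU, PLAUR, SERPINB2, ANXA2 and S100A10 but not of SERPINE2 or PLGRKT, against 37% of windows. PLAU held 3 at 1 start and 2 at the other, and SERPINB2 held 3, where 7.09% of all windows held 3 or more. The related element TGACGTCA was in none of these windows, against 1.85% of promoters and 3.37% of upstream windows. These are matches of letters and no measurement of binding. Distances are counted from the RefSeq start. The nearest elements of PLAU, PLAUR, SERPINB2 and ANXA2 lie inside the annotated span of their gene, which begins before that start. The element of each gene that was nearest to a start, and a more distant one of PLAU, are shown with 11 bases on each side, 5′ to 3′ on the strand of the gene, with the element in capitals.
PLAU, 1176 bases upstream, chr10:73909423-73909451, plus strand: tatagcatcgcTGACTCAgtctgtcccct
PLAU, 2592 bases upstream, chr10:73908007-73908035, plus strand: gttgccacatcTGACTCAggagctctgta
PLAUR, 186 bases upstream and inside an annotated exon of a longer PLAUR transcript, chr19:43670338-43670366, minus strand: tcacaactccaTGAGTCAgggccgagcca
SERPINE2, 2563 bases upstream, chr2:224041186-224041214, minus strand: agagacctctcTGAATCAtttcttaacaa
SERPINB2, 102 bases upstream, chr18:63887592-63887620, plus strand: gagtaaaatgtTGAATCActcaaaggaca
ANXA2, 127 bases upstream, chr15:60398096-60398124, minus strand: gcgggccggggTGAGTCAcccctgacttg
S100A10, 1156 bases upstream, chr1:151994998-151995026, minus strand: gtatttaacccTGAGTCAcaattaaaata
PLGRKT, 1919 bases upstream, chr9:5439827-5439855, minus strand: ggtatttgggaTGAATCAtaccattctgt

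PLAU, which encodes urokinase, lies at chr10:73909177-73917497 on the plus strand. In EW8 its level was 0.135, 0.0872 and 0.377 CPM in the vehicle libraries and 116, 127 and 108 CPM in the doxycycline libraries. In TC71 it was 0.153, 0.451 and 0.291 CPM with vehicle and 25.3, 24.4 and 25.3 CPM with doxycycline. The gene was thus close to the floor in all 6 vehicle libraries, with 4 to 28 counts each, and no vehicle library overlapped a doxycycline library of its line. The log2 fold change was 9.09 ± 0.35 (SE) in EW8 (adjusted p = 3.76e-16, edgeR) and 6.34 ± 0.29 in TC71 (adjusted p = 2.15e-14). As a ratio of counts scaled to depth this was 553-fold in EW8 (95% interval 329 to 937) and 81.4-fold in TC71 (54.3 to 123), where the interval takes read pairs as the unit and covers counting error only.

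PLAU responded less in TC71, at a log2 difference of the responses of -2.75 ± 0.45 (TC71 minus EW8, adjusted p = 0.000205, edgeR). With vehicle the lines did not differ beyond their spread (0.53 ± 0.43, TC71 minus EW8, adjusted p = 0.299), but without EW8 vehicle replicate 3, whose 21 counts exceed the 4 and 6 of the others, this difference was 1.48 (adjusted p = 0.0138), the EW8 response 10.05 and the difference of the responses -3.76. With doxycycline PLAU was lower in TC71 (log2 difference -2.23 ± 0.13, adjusted p = 5.34e-11), and all 3 TC71 libraries lay under all 3 EW8 libraries. With TC71 vehicle replicate 1 left out, the TC71 response was 5.96, the difference of the responses -3.18 and the vehicle difference 0.94 (adjusted p = 0.0443). The exons of PLAU overlap those of C10orf55 on the other strand, and strand was not used in the counting. C10orf55 itself had 0 counts in every vehicle library and 2 to 39 with doxycycline.

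PLAT encodes tissue-type plasminogen activator, the form that dissolves clots in blood vessels, and lies at chr8:42175233-42207724 on the minus strand. Its level in EW8 was 4.67, 5.67 and 3.88 CPM with vehicle and 61.0, 58.9 and 61.7 CPM with doxycycline. In TC71 the vehicle libraries held 1.78, 2.08 and 1.67 CPM and the doxycycline libraries 47.6, 47.0 and 52.3 CPM. Groups did not overlap in either line. The log2 fold change was 3.68 ± 0.11 in EW8 (adjusted p = 1.73e-14, edgeR) and 4.72 ± 0.13 in TC71 (adjusted p = 1.45e-15).

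PLAT was lower in TC71 than in EW8 with vehicle (log2 difference -1.35 ± 0.14, adjusted p = 7.96e-08, edgeR). With doxycycline the difference was -0.31 ± 0.1 (adjusted p = 0.0135), and the highest TC71 library, at 52.3 CPM, was under the lowest EW8 library, at 58.9 CPM. The response was thus larger in TC71 by 1.04 ± 0.17 (adjusted p = 0.000206), just past the limit of 1. It was 0.89 without TC71 vehicle replicate 1 (adjusted p = 0.000385), where the TC71 response was 4.62 and the vehicle difference -1.21, and fell under the limit in 9 of the 20 alternatives.

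Per length, the order of the activators changed with doxycycline. On the scale of RPKM, which is CPM per kilobase of summed annotated exon length (2950 bases for PLAU and 6618 for PLAT), PLAU stood at 0.106 ± 0.0984 of the level of PLAT in EW8 vehicle and at 4.35 ± 0.461 times that level in EW8 doxycycline. In TC71 the ratio went from 0.357 ± 0.15 to 1.15 ± 0.0539. All doxycycline libraries had more PLAU than PLAT per kilobase, and all vehicle libraries had less. In TC71 doxycycline this order rests on those lengths, since PLAT had more reads, at 49 CPM against 25 as group means.

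PLAUR, the anchor of urokinase on the cell surface, lies at chr19:43646095-43670547 on the minus strand. It was detected in every library. In EW8 the vehicle libraries had 6.27, 8.33 and 6.25 CPM and the doxycycline libraries 63.8, 64.8 and 61.5 CPM. In TC71 the levels were 11.7, 16 and 13.8 CPM with vehicle and 247.8, 255.1 and 218.8 CPM with doxycycline. The 4 groups did not overlap with each other, and their order was EW8 vehicle, TC71 vehicle, EW8 doxycycline, TC71 doxycycline.

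The log2 fold change of PLAUR was 3.19 ± 0.11 in EW8 (adjusted p = 1.04e-13, edgeR) and 4.12 ± 0.1 in TC71 (adjusted p = 1.72e-15). The difference of the responses was 0.93 ± 0.15 (adjusted p = 0.000264), which passed the test but not the limit of 1. TC71 was higher than EW8 with vehicle by 1.00 ± 0.12 (adjusted p = 6.11e-07), at the limit and called in 11 of 20 alternatives, and with doxycycline by 1.93 ± 0.1 (adjusted p = 1.21e-11). In the fit without TC71 vehicle replicate 1 the vehicle difference was 1.22, the TC71 response 3.93 and the difference of the responses 0.69.

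Transcripts of ligand and receptor were therefore unequally matched in the lines. PLAU per PLAUR, as a ratio of RPKM, was 0.0465 ± 0.0396 in EW8 vehicle and 0.0314 ± 0.0114 in TC71 vehicle, and the libraries of these groups overlapped. It was 2.79 ± 0.159 in EW8 doxycycline and 0.158 ± 0.0156 in TC71 doxycycline. With doxycycline EW8 thus had more transcript of the ligand than of the receptor, and TC71 had more of the receptor, in all 3 libraries of each.

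SERPINE2 encodes protease nexin, a secreted serpin that inhibits urokinase, tissue-type activator and thrombin, and lies at chr2:223975112-224039319 on the minus strand. In EW8 the levels were 24.5, 26.6 and 23.8 CPM with vehicle and 545.4, 556.3 and 552.8 CPM with doxycycline. In TC71 they were 126, 110.2 and 118.6 CPM with vehicle and 293.7, 293.8 and 301.2 CPM with doxycycline. The groups did not overlap, and the order of the lines was opposite with and without doxycycline.

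SERPINE2 had a log2 fold change of 4.47 ± 0.06 in EW8 (adjusted p = 4.23e-19, edgeR) and 1.32 ± 0.06 in TC71 (adjusted p = 9.26e-13). The difference of the responses was -3.14 ± 0.08 (adjusted p = 3.45e-14), at rank 20537 of 21013 genes ordered from the highest such difference. TC71 was higher with vehicle by 2.25 ± 0.06 (adjusted p = 1.03e-15). With doxycycline TC71 was lower, at a log2 difference of -0.90 ± 0.06 (adjusted p = 1.17e-10). Without TC71 vehicle replicate 1 the TC71 response was 1.29, the difference of the responses -3.22 and the vehicle difference 2.31.

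SERPINB2 encodes plasminogen activator inhibitor type 2, a urokinase inhibitor that stays largely inside cells, and lies at chr18:63871692-63903890 on the plus strand. It had 2, 0 and 0 counts in EW8 vehicle and 0 counts in each TC71 vehicle library. With doxycycline it had 1218, 1232 and 837 counts in EW8 and 435, 370 and 418 counts in TC71, which are 21.8, 24.4 and 19.1 CPM and 10.5, 8.84 and 9.51 CPM. The gene was thus at the floor in both vehicle groups and above it in all 6 doxycycline libraries. The ratio in EW8 was 1600-fold with a 95% counting interval of 286 to 63100, and in TC71 SERPINB2 was at least 82.7-fold higher, taken against the floor of 6 counts (3 read pairs) per library. These values rest on different bases and do not compare the lines.

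Both changes of SERPINB2 passed the test (adjusted p = 5.06e-13 in EW8 and 2.16e-12 in TC71, edgeR; 3.43e-16 in TC71 without TC71 vehicle replicate 1). With doxycycline it was lower in TC71 (log2 difference -1.18 ± 0.16, adjusted p = 1.15e-05). No difference of the responses is given, since both vehicle groups were at the floor. Exons of SERPINB2 overlap those of SERPINB10 on the same strand, and SERPINB10 had at most 6 counts in any library. SERPINB2 was 1 of the genes with the element near its start, and no exon is annotated in the 250 bases before that start, chr18:63887455-63887704, which are printed here on the plus strand with the element in capitals.
SERPINB2 promoter: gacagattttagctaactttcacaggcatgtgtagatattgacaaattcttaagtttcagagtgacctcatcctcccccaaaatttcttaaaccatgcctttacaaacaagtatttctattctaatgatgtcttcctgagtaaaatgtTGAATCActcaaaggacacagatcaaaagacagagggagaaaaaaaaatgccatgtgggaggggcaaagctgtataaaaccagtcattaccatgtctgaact

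ANXA2 encodes annexin A2, a membrane-binding protein that binds plasminogen and tissue-type activator when paired with S100A10, and lies at chr15:60347134-60402883 on the minus strand. It was abundant before induction. EW8 vehicle libraries had 326, 331 and 325 CPM and EW8 doxycycline libraries 2285, 2280 and 2251 CPM. TC71 vehicle libraries had 526, 562 and 590.0 CPM and TC71 doxycycline libraries 2586, 2535 and 2459 CPM. The groups did not overlap.

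ANXA2 had a log2 fold change of 2.79 ± 0.05 in EW8 (adjusted p = 4.51e-18, edgeR) and 2.18 ± 0.05 in TC71 (adjusted p = 7.08e-17). The difference of the responses was -0.62 ± 0.06 (adjusted p = 1.56e-06). TC71 was higher by 0.77 ± 0.05 with vehicle (adjusted p = 6.42e-11) and by 0.15 ± 0.05 with doxycycline (adjusted p = 0.00729). Leaving out TC71 vehicle replicate 1 gave 2.05 for the TC71 response, -0.79 for the difference of the responses and 0.93 for the vehicle difference. Near-identical copies of this gene exist elsewhere in the genome. The pseudogene ANXA2P2 had 240 to 318 counts in EW8 vehicle and 1722 to 2260 in EW8 doxycycline, and 444 to 597 and 1894 to 2458 in TC71. The counting used no option for reads with several positions, so ANXA2 reads could be lost from the count or be assigned to a copy.

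S100A10, the light chain that joins annexin A2 in a tetramer and carries its plasminogen-binding tail, lies at chr1:151982915-151994390 on the minus strand. In EW8 it had 1.99, 1.57 and 2.01 CPM with vehicle and 243, 237 and 254 CPM with doxycycline. In TC71 it had 22.1, 24.7 and 24.0 CPM with vehicle and 599.7, 572.6 and 584.1 CPM with doxycycline. The groups did not overlap, and the vehicle groups lay apart as well.

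The log2 fold change of S100A10 was 7.04 ± 0.09 in EW8 (adjusted p = 5.58e-20, edgeR) and 4.63 ± 0.06 in TC71 (adjusted p = 5.59e-19). The difference of the responses was -2.4 ± 0.11 (adjusted p = 1.63e-11). TC71 was higher than EW8 with vehicle by 3.66 ± 0.09 (adjusted p = 1.6e-16) and with doxycycline by 1.26 ± 0.06 (adjusted p = 2.46e-12). The differences between the lines thus had the same sign in both conditions, unlike those of SERPINE2. Without TC71 vehicle replicate 1 the TC71 response was 4.51, the difference of the responses -2.57 and the vehicle difference 3.82.

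The ratio of the ANXA2 transcript to that of its partner changed by more than either spread. ANXA2 per S100A10, as a ratio of RPKM, was 28.7, 36.9 and 28.3 in EW8 vehicle and 1.65, 1.68 and 1.55 in EW8 doxycycline. In TC71 it was 4.16, 3.99 and 4.30 with vehicle and 0.754, 0.774 and 0.736 with doxycycline. In EW8 vehicle the transcript of ANXA2 was thus in large excess, and in TC71 doxycycline that of S100A10 exceeded it per kilobase in all 3 libraries. This last order rests on the annotated exon lengths of 8824 bases for ANXA2 and 1543 for S100A10, since ANXA2 had more reads there, at 2527 CPM against 585.5 as group means.

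PLGRKT encodes the plasminogen receptor with a C-terminal lysine, which spans the membrane, and lies at chr9:5357973-5437878 on the minus strand. In EW8 it had 8.26, 5.43 and 6.86 CPM with vehicle and 7.27, 7.0 and 7.03 CPM with doxycycline. In TC71 it had 7.71, 8.20 and 7.82 CPM with vehicle and 10.5, 9.99 and 9.72 CPM with doxycycline. The EW8 groups overlapped, while every TC71 doxycycline library was above every TC71 vehicle library, as were 27.6% of all tested genes.

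The log2 fold change of PLGRKT was 0.05 ± 0.14 in EW8 (adjusted p = 0.81, edgeR) and 0.35 ± 0.14 in TC71 (adjusted p = 0.0554). Its sign in EW8 turned to -0.01 with scaling by library size alone. The lines did not differ beyond their spread with vehicle (0.21 ± 0.14, adjusted p = 0.222), and with doxycycline TC71 was higher by 0.50 ± 0.14 (adjusted p = 0.00518), under the limit. Without TC71 vehicle replicate 1 the TC71 response was 0.25 (adjusted p = 0.207), the difference of the responses 0.15 and the vehicle difference 0.34 (adjusted p = 0.0648).

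**Figure D3:**
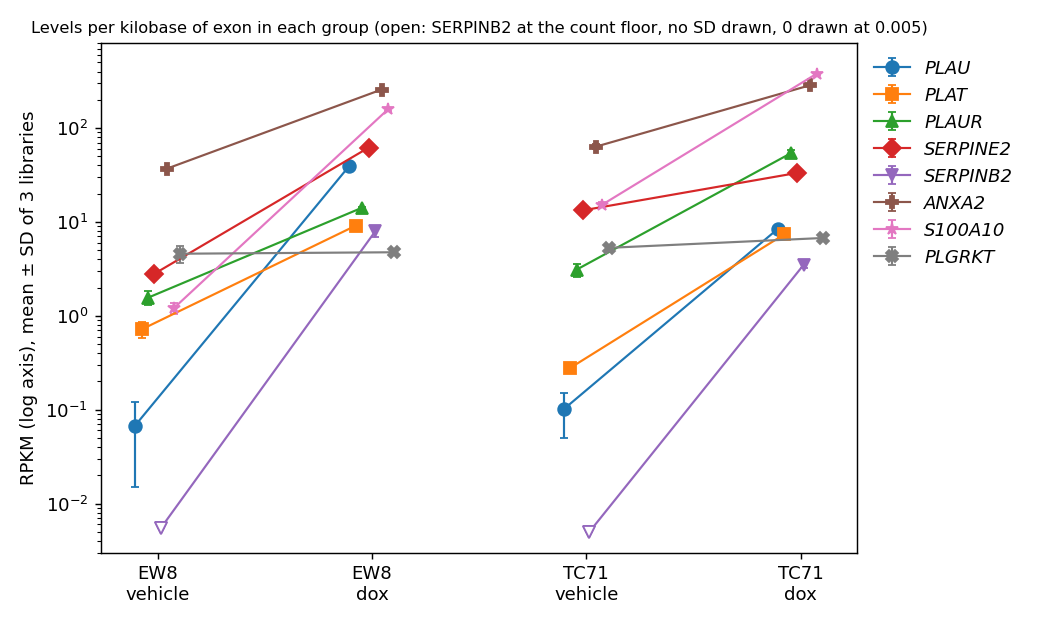
Mean level per kilobase of exon of the 8 genes in each group (RPKM on a log axis, mean ± SD of 3 libraries), with vehicle and doxycycline of the same line joined; open markers are SERPINB2 at the floor. ANXA2 was the highest in every group but TC71 doxycycline, where S100A10 was, at 379.4 against 286.3; in reads not divided by length ANXA2 was higher there too.

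Compared per kilobase of exon, ANXA2 led with vehicle, at 37.1 ± 0.322 RPKM in EW8 and 63.4 ± 3.62 in TC71. In EW8 vehicle PLGRKT followed at 4.59 ± 0.947, SERPINE2 at 2.81 ± 0.164, PLAUR at 1.56 ± 0.267 and S100A10 at 1.2 ± 0.161, where PLAUR and S100A10 differed by less than the sum of their SDs. PLAT stood at 0.716 ± 0.135 and PLAU at 0.0678 ± 0.0527. In TC71 vehicle S100A10 (15.3 ± 0.857) and SERPINE2 (13.3 ± 0.893) came next and PLGRKT (5.30 ± 0.17) and PLAUR (3.10 ± 0.489) after them, above PLAT (0.278 ± 0.032) and PLAU (0.101 ± 0.0506). SERPINB2 was last in both lines. These orders rest in part on the annotated exon lengths. In reads SERPINE2 was above PLGRKT in EW8 vehicle, at 24.95 CPM against 6.848 as group means. It was also above S100A10 in TC71 vehicle, at 118.3 CPM against 23.59.

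With doxycycline the order became ANXA2 (257.5 ± 2.06), S100A10 (158.5 ± 5.73), SERPINE2 (62.0 ± 0.626), PLAU (39.7 ± 3.25), PLAUR (14.2 ± 0.38), PLAT (9.15 ± 0.22), SERPINB2 (7.92 ± 0.952) and PLGRKT (4.76 ± 0.0985) in EW8. In TC71 it was S100A10 (379.4 ± 8.83), ANXA2 (286.3 ± 7.26), PLAUR (54.0 ± 4.31), SERPINE2 (33.3 ± 0.483), PLAU (8.48 ± 0.184), PLAT (7.4 ± 0.439), PLGRKT (6.75 ± 0.274) and SERPINB2 (3.51 ± 0.312), and PLAT and PLGRKT differed by less than the sum of their SDs. In reads SERPINE2 was above S100A10 in EW8 doxycycline, at 551.5 CPM against 244.6 as group means. Per kilobase PLGRKT thus went from second place to the last in EW8 at nearly the same level, and the second place rests on the exon lengths. Among all 21013 tested genes ordered by RPKM, ANXA2 stood at rank 125 in EW8 doxycycline and 112 in TC71 doxycycline, S100A10 at 229 and 73, and PLAU moved from 18838 to 1234 in EW8 and from 17385 to 5579 in TC71.

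**Figure D4:**
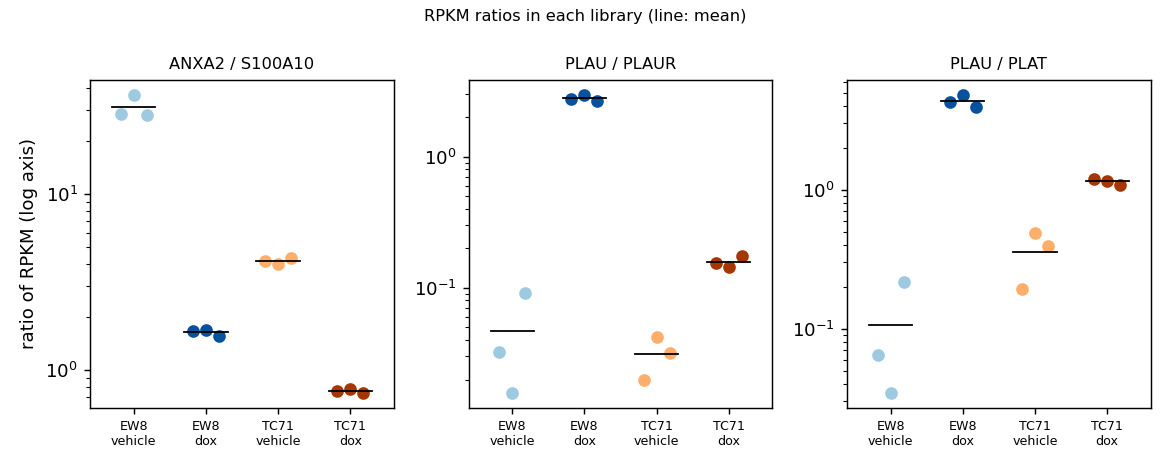
Ratios of RPKM between genes in each library on a log axis; each point is 1 library and each line a group mean. ANXA2 per S100A10 went from a mean of 31.3 to 1.63 in EW8 and from 4.15 to 0.755 in TC71. Transcript ratios say nothing of protein or activity, which these data do not measure.

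The other genes of the system were taken from 4 lists with 35 genes, of which 27 could be tested. In EW8 13 rose and in TC71 17 rose (15 without TC71 vehicle replicate 1), and 0 were called lower in either line by edgeR or DESeq2. The background was 11.4% of all tested genes called higher in EW8 and 12.3% in TC71. ST14, ITGB3 and ITGAM passed the filter on low counts only through doxycycline libraries, so the filter favoured their calls. Past the test but not the limit, the chromatin protein HMGB1 was lower in EW8 (-0.54, adjusted p = 5.97e-08, edgeR) and in TC71 (-0.28, adjusted p = 0.000161), and the integrin chain ITGB2 in TC71 (-0.51, adjusted p = 0.000482). They were also the only genes of these lists that were lower at an unadjusted p under 0.05. Over the 27 tested genes the median log2 fold change was 1.08 in EW8 and 1.55 in TC71, against -0.03 and 0 over all genes. The substrate was not among them: PLG, plasminogen itself, had 0 counts in every library outside EW8 doxycycline and at most 4 there. SERPINF2, the antiplasmin, had at most 6 counts, and SERPINA5, KLKB1, HPN, LRP2, FPR1 and FPR2 were likewise not tested.

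Among the 4 other inhibitors tested, of 6 listed, 1 rose in EW8 and 3 in TC71, against 11.4% and 12.3% of all genes. SERPINB8, a relative of SERPINB2, rose by 1.88 ± 0.08 in EW8 (adjusted p = 3.13e-12, edgeR) and by 3.89 ± 0.09 in TC71 (adjusted p = 3.24e-16). SERPINI1, neuroserpin, and SERPINB6 were called in TC71, at 1.39 ± 0.21 and 1.16 ± 0.08, where EW8 had -0.42 and 0.78; the difference was past the test and the limit for SERPINI1 (1.81, adjusted p = 0.00034) and under the limit for SERPINB6 (0.38, adjusted p = 0.0314).

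Of the other proteases that activate plasminogen or the zymogen of urokinase, 4 of the 7 listed genes were tested, of which 2 rose in EW8 and 4 in TC71, against 11.4% and 12.3% of all genes. The lysosomal proteases CTSB and CTSL rose in both, by 1.85 ± 0.05 and 1.44 ± 0.08 on the log2 scale in EW8 and by 2.88 ± 0.05 and 2.86 ± 0.08 in TC71. F12, coagulation factor XII, and ST14, matriptase, were called in TC71. F12 had a log2 fold change of 1.71 ± 0.3 there and 0.02 ± 0.26 in EW8, a difference of 1.69 (adjusted p = 0.00551, edgeR). ST14 had 2 counts in all in TC71 vehicle and 810 in TC71 doxycycline, a ratio of 529-fold with a 95% counting interval of 94.4 to 21000, and 8 and 36 counts in EW8. It passed the filter on low counts only through doxycycline libraries.

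The next list held proteins that bind plasminogen and, with AHNAK, 1 listed for its binding to a plasminogen receptor. All 6 were tested, of which 3 rose in EW8 and 2 in TC71, AHNAK in both, against 11.4% and 12.3% of all genes. AHNAK, a very large scaffold protein that binds the complex of annexin A2 and S100A10, rose by 4.8 ± 0.13 in EW8 and by 3.63 ± 0.12 in TC71, and the difference of -1.17 had the same sign as those of ANXA2 and S100A10 (adjusted p = 9.92e-05, edgeR). The keratins KRT8 and KRT18 rose in EW8 by 2.67 ± 0.19 and 2.15 ± 0.1 and had log2 fold changes of 0.22 and 0.17 in TC71, with differences of -2.45 (adjusted p = 6.01e-06) and -1.98 (adjusted p = 4.09e-09). IGF2R, which binds plasminogen and the urokinase receptor, was called in TC71 (1.13 ± 0.06) and had 0.73 ± 0.06 in EW8. ENO1, the glycolytic enzyme enolase, was the most abundant gene of the list, with 2208 to 3949 CPM as group means.

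Of the partners and clearance receptors of PLAUR, 13 of the 16 listed were tested, of which 7 rose in EW8 and 8 in TC71, against 11.4% and 12.3% of all genes. LRP1, which takes up complexes of urokinase with its inhibitors, rose by 1.08 ± 0.13 in EW8 and by 1.78 ± 0.13 in TC71. The integrin chains ITGA5 and ITGAV, which pair on the membrane with beta chains and associate with PLAUR, rose by 2.63 ± 0.06 and 2.66 ± 0.07 in EW8 and by 2.31 ± 0.06 and 2.34 ± 0.06 in TC71. The beta chain ITGB3 rose from 0.150 ± 0.0882 to 1.11 ± 0.359 CPM in EW8 and from 0.161 ± 0.113 to 1.3 ± 0.359 CPM in TC71, both low levels. ITGAM, a leukocyte integrin chain, rose in both lines too, from 30 to 309 counts in all in EW8 and from 8 to 55 in TC71. ITGB3 and ITGAM passed the filter on low counts only through doxycycline libraries.

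ITGB1 and VLDLR were called in TC71, at 1.55 ± 0.05 and 1.58 ± 0.25, with 0.61 ± 0.05 and 0.13 ± 0.31 in EW8, and the difference passed the test and the limit for VLDLR (1.45, adjusted p = 0.0145, edgeR) and the test for ITGB1 (0.94, adjusted p = 7.68e-08). EGFR, a receptor tyrosine kinase that signals with PLAUR, rose by 2.75 ± 0.14 in EW8. In TC71 EGFR had 0 counts with vehicle and 8 to 22 per library with doxycycline, at least 3.23-fold higher. LYPD3, a structural homolog of PLAUR, rose by 3.32 ± 0.75 in EW8 and had 0.14 ± 0.71 in TC71, with a difference of -3.17 (adjusted p = 0.0376, edgeR).

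**Figure D5:**
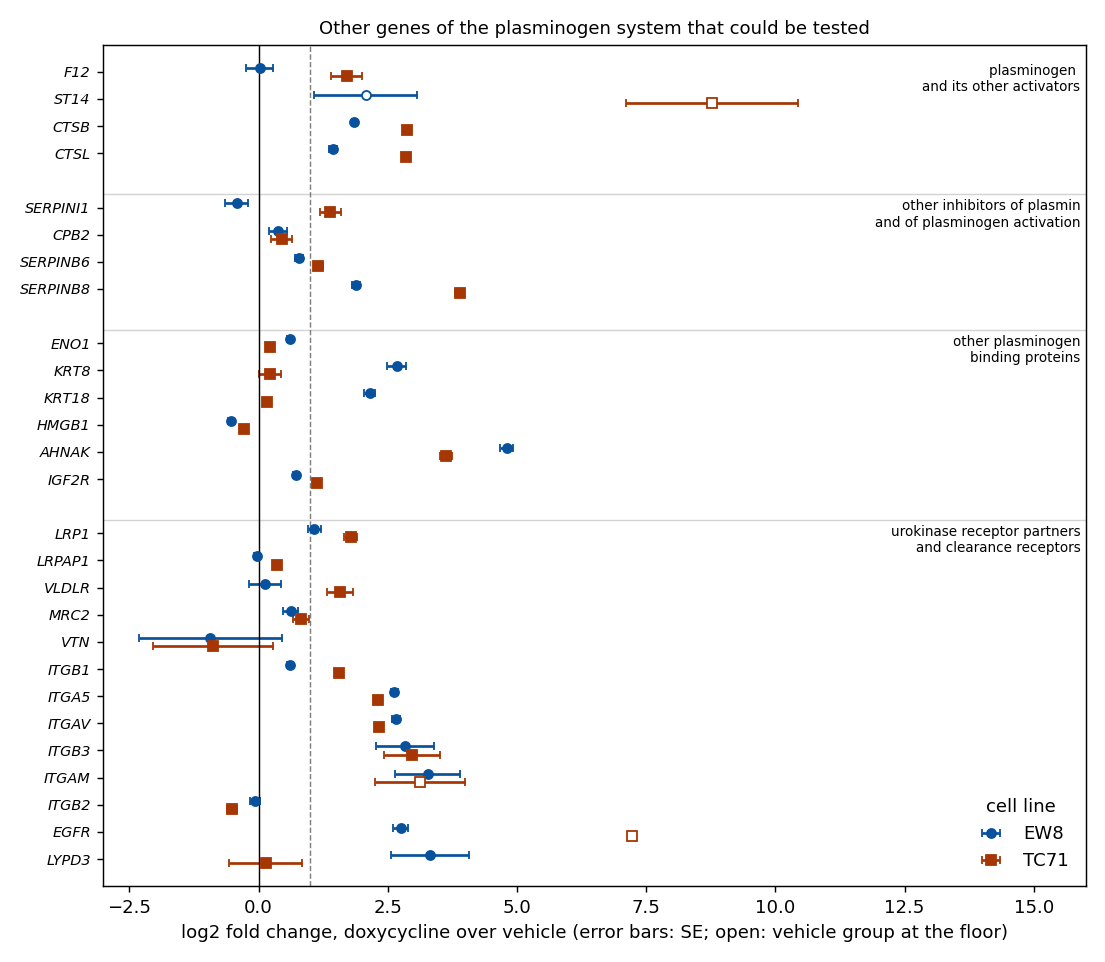
Log2 fold change, doxycycline over vehicle, with SE, for the 27 other genes of the system that could be tested, grouped by list; circles are EW8 and squares TC71, and open symbols mark vehicle groups at the floor, whose fitted value is no bound. AHNAK was the highest in EW8, at 4.8, and SERPINB8 in TC71, at 3.89, among those whose vehicle group was above the floor.

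Markers of other cell types were detected in part, and some moved with doxycycline. The summed level of PECAM1, CDH5, VWF and KDR, which mark endothelium, a tissue that makes PLAT, was 7.54 to 8.72 CPM in EW8 vehicle and 37.4 to 44.3 in EW8 doxycycline, and 0.0644 to 0.382 and 3.85 to 5.14 CPM in TC71. PECAM1 and VWF were called higher in both lines, CDH5 in TC71, and KDR in neither. VWF had at most 6 counts in any vehicle library and passed the filter on low counts only through doxycycline libraries, so the filter favoured its calls. In TC71 doxycycline VWF had 10 to 16 counts per library and CDH5 4 to 10. Of the 5 leukocyte markers PTPRC, at a mean of 65.9 CPM in EW8 vehicle and 74.9 in EW8 doxycycline, made up most of the sum of 65.1 to 80.3 CPM in the EW8 libraries, which had at most 2 counts of CD3E, and the sum was at most 0.66 CPM in TC71. Of the 4 epithelial markers EPCAM rose in TC71, with a sum of 0.229 to 1.19 CPM with vehicle and 11.4 to 12.6 with doxycycline, while CDH1, KRT5 and KRT19 were at the floor there. The part of these genes in the results was not tested. In bulk RNA, fewer cells of a type and less RNA per cell cannot be told apart.

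The genes with the pattern most like each member were taken over the 12 libraries by Pearson's r of log2 CPM among 12776 protein-coding genes. These values describe mostly the shift between vehicle and doxycycline that all libraries share. For PLAU they were RCAN1, TNFRSF10B and ELK3 (0.994, 0.994 and 0.993), the same 3 genes without TC71 vehicle replicate 1. For PLAT they were SH3BGRL3, TPD52L2 and WDFY2 (0.997, 0.995 and 0.995), and for PLAUR SMAP2, MYL6 and LAMC1 (0.997, 0.997 and 0.996). For SERPINE2 they were ERN1, SLC9A9 and TRIM38 (0.989, 0.984 and 0.984), and for SERPINB2 TMEM156, CHMP4B and SDC4 (0.998, 0.998 and 0.997). For ANXA2 they were NCKAP1L, ELL2 and PKIA (0.998, 0.998 and 0.997), and for S100A10 TMEM158, GAB2 and TRIB1 (0.997, 0.997 and 0.996). PLGRKT had the lowest values, with UPRT, TPST2 and PLEKHF2 at 0.942, 0.941 and 0.936. Without TC71 vehicle replicate 1, 14 of these 24 genes were among the closest 3 again. Among the members themselves, the r over the same libraries was highest between PLAU and SERPINB2 (0.982) and lowest between PLAT and PLGRKT (0.282).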

How the data were processed

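RNA was sequenced from 12 libraries as strand-specific polyA libraries. The authors aligned reads with STAR and deposited raw counts per gene; per the file headers these came from featureCounts 2.0.1 at exon level with GENCODE release 29 on GRCh38 (hg38), without options for read pairs, strand or reads with several positions. Both mates of a read pair thus added to the count, and 6 counts (3 read pairs) per library were taken as the floor.

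Symbols were found for 58207 of the 58721 genes (99.1%). Genes passing filterByExpr (21013, with 99.95% of counts) were tested with edgeR 4.0.16 (R 4.3.3) by glmQLFit and glmQLFTest on TMM-scaled counts, with all 4 groups in 1 fit and Benjamini-Hochberg adjustment over all tested genes. SEs are Wald errors, a form chosen after the first fit. Intervals of ratios are exact at 95%, on read pairs, and cover counting error only. The 21 alternatives included DESeq2 1.42.0, other scalings and filters, and leaving out each library. The procedure was tested on simulated data.

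The 8 genes and all lists were chosen with earlier results of these data known, and the RPKM ratios after values were seen. Named were the members, JUN and FOS, genes of the 4 other lists called in a line (others where a count is 5 or fewer or the gene is abundant or undetected), and the 3 protein-coding genes most like each member at a mean CPM of at least 1. Exons at the promoters came from GENCODE annotation of the reference, and promoter sequences from RefSeq (GRCh38.p14). 1 gene of the lists is not reported here.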

Additional observations from a re-analysis of the deposited data

Results flagged for a closer look

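The response to doxycycline differed between TC71 and EW8 for 6 genes in edgeR's test of the difference itself (TC71 minus EW8, log2 scale, adjusted p under 0.05). It was smaller in TC71 for SERPINE2 (-3.14 ± 0.08), PLAU (-2.75 ± 0.45), S100A10 (-2.4 ± 0.11) and ANXA2 (-0.62 ± 0.06). It was larger in TC71 for PLAT (1.04 ± 0.17) and PLAUR (0.93 ± 0.15). JUN and FOS also rose more in TC71, by 0.73 ± 0.15 (adjusted p = 0.00217) and 2.21 ± 0.09 (adjusted p = 6.41e-12), and their part in these differences was not tested.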

How the results depend on the processing

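Of 768 values of single members under the alternatives, 737 kept their direction and their side of the threshold. The 7 members called in each line were called under every alternative in which they were tested; a minimum of 10 counts in every library removed PLAU and SERPINB2 and left 5. PLGRKT in EW8 turned to -0.01 with library size alone, and ranged from -0.09 to 0.21 when 1 library was left out. The PLAT difference of the responses ranged from 0.89 to 1.15 and that of PLAUR with vehicle from 0.88 to 1.22, around the limit of 1. The count of members responding more in TC71 was 0 with at least 10 counts or with counts divided by 2, was 2 with no fold limit, and ranged from 0 to 2 when 1 library was left out. With at least 10 counts, members lower in TC71 with doxycycline numbered 0, and genes of the other lists numbered 5 responding more in TC71 and 3 lower in TC71 with doxycycline. With no fold limit, members numbered 4 higher and 4 lower in TC71 with doxycycline and 4 higher with vehicle; genes of the other lists numbered 16 and 9 with doxycycline, 10 and 11 with vehicle, 14 and 8 for the responses, and 1 (EW8) and 2 (TC71) lower with doxycycline than with vehicle. Those responding less in TC71 ranged from 2 to 4 when 1 library was left out, with 2 without TC71 vehicle replicate 2. Apart from the filters and the fold limit, whose construction changes the counts, the cause was not tested. No pairing by replicate number was seen: deviations of same-numbered libraries correlated at -0.028 to 0.01, which cannot show whether such libraries were prepared together. A replicate block left 7 members called in each line, with 2968 genes called in EW8 against 3112 without it and 3220 in TC71 against 3355. With library size alone, 23 of 30 RPKM levels moved by less than 1 SD. PLAU and SERPINB2 with vehicle lay at or near the floor, which limits the precision of their fold changes.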
